A study of Arabidopsis thaliana with 14 samples.

Results

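Class III peroxidases are the plant-specific, secreted haem peroxidases, and the 60 loci taken here are the listed members of the Arabidopsis thaliana family. Of these, 47 had a probe set of their own on the array, 1 each, and they stand among 13286 genes with such a probe set in the whole data set. A further 4 loci were read only by 3 probe sets that each hold a pair of genes, and 9 loci had no match in the probe table and are not analysed here. Of the 47 measured members, 41 passed the filter on low signal (3 or more of the 14 arrays with an intensity over the 30th percentile of that array) and were tested, and 6 did not.

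Enzymes of this family sit in the cell wall and the vacuole and use hydrogen peroxide to oxidise phenolic compounds, which joins monolignols into lignin and cross-links wall proteins. Some members can also release reactive oxygen species, so the family is known both for stiffening walls and for loosening them. Many of its genes are expressed mainly in roots, among them in root hairs, the endodermis and the xylem. YODA (YDA), a MAP kinase kinase kinase, holds back the formation of stomata in the leaf epidermis.

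The series measured total RNA of whole seedlings at 7 dpg on 1-colour arrays, and the question here is which transcripts of the family differ when YDA activity is raised or lost. NdelYDA seedlings carry an N-terminal deletion form of YDA (NB89 in the labels, 4 arrays, of which some labels give the Ler ecotype and the lack of stomata) and were compared with the Ler ecotype control (3 arrays). The yda seedlings (4 arrays), loss-of-function by the series title, were compared with line CS9159 of the C24 ecotype (3 arrays). The controls were also compared with each other, Ler against C24. The sources used here do not give the promoter that drives the deletion form, the yda allele, the ecotype of yda or the number of seedlings pooled. Mutant samples are labelled as biological replicates and controls by a number alone, so the p-values reflect spread between the 14 samples, some of which may be technical. In whole seedlings, fewer cells of a type and less RNA per cell cannot be told apart.

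Correlations of log2 intensity within a group lay between 0.977 and 0.989, the lowest of them in C24. C24 replicate 1 was the lowest of the 3 C24 arrays for 26 of the 41 tested members, against 4 for replicate 2 and 11 for replicate 3, and its GAPDH 3′ to 5′ signal ratio was 1.46, against 1.12 and 1.02 in the other C24 arrays. That ratio, a sign of RNA quality, was 0.789 to 0.945 in yda, below every C24 array, and 0.992 to 1.21 in NdelYDA, overlapping the 1.05 to 1.11 of Ler. Its part in the yda results was not tested. Without C24 replicate 1, AT1G14550 and AT5G47000 no longer passed the filter and were not tested. The seedlings held transcripts of both root and green tissue. PYK10, a root and hypocotyl beta-glucosidase and the 1 measured gene of 26 on the root list, averaged 10140 in NdelYDA, 10980 in Ler, 11220 in yda and 11370 in C24 and was called in neither mutant. RCA, the Rubisco activase and 1 of 2 measured among 23 photosynthetic genes, was called in neither mutant as well. LHCB4.1, a light-harvesting antenna gene, had a log2 change of -0.18 in yda (adjusted p = 0.0326) and was not called in NdelYDA (adjusted p = 0.526).

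In NdelYDA seedlings 22 of the 41 tested peroxidases were lower than in the Ler control and 8 were higher. By the same rule, an adjusted p under 0.05 in limma, 16.6% of all 17210 tested probe sets were lower and 15.4% higher (32% called either way), against 53.7% and 19.5% of the tested members. The median change of the members was -0.57 on the log2(intensity + 16) scale, against -0.01 for all probe sets tested, and the members ranged from -2.19 to 2.98. Falls of at least 2-fold were called for 14 members, or 34.1%, against 3.32% of all probe sets, and such rises for 6 (2.75% of all). The 4 NdelYDA arrays lay wholly below the 3 Ler arrays for 24 of 41 members (22.9% of all probe sets) and wholly above them for 11 (21.1% of all). Some members passed the filter mainly through the group in which they are high. Among the 30 above the percentile on every array, 17 were lower in NdelYDA, 5 were higher and 8 were not called. The share called among all probe sets of that kind was not determined, so these counts have no like share beside them. With the filter at the 50th percentile, 36.8% of 12810 probe sets were called in NdelYDA.

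In yda seedlings 17 members were lower than in C24 and 12 were higher, or 41.5% and 29.3%, while of all probe sets 24.4% were lower and 19.1% higher (43.4% called either way). At least 2-fold lower were 6 members (3.7% of all) and at least 2-fold higher 5 (2.75% of all). The median change was -0.09, close to the -0.03 of all probe sets, and the range was -1.44 to 2.91. The 4 yda arrays lay below all C24 arrays for 17 members (23.2% of all probe sets) and above them for 11 (18.4% of all). Here too some members passed the filter through the group in which they are high. Among the 30 above the percentile on every array, 13 were lower in yda, 9 were higher and 8 were not called, again with no like share over all probe sets. Without C24 replicate 1, 24 calls were left among 39 members tested, 15 lower and 9 higher. In that fit 40.8% of all 17145 tested probe sets were called either way, and their shares by direction were not determined.

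**Figure D1:**
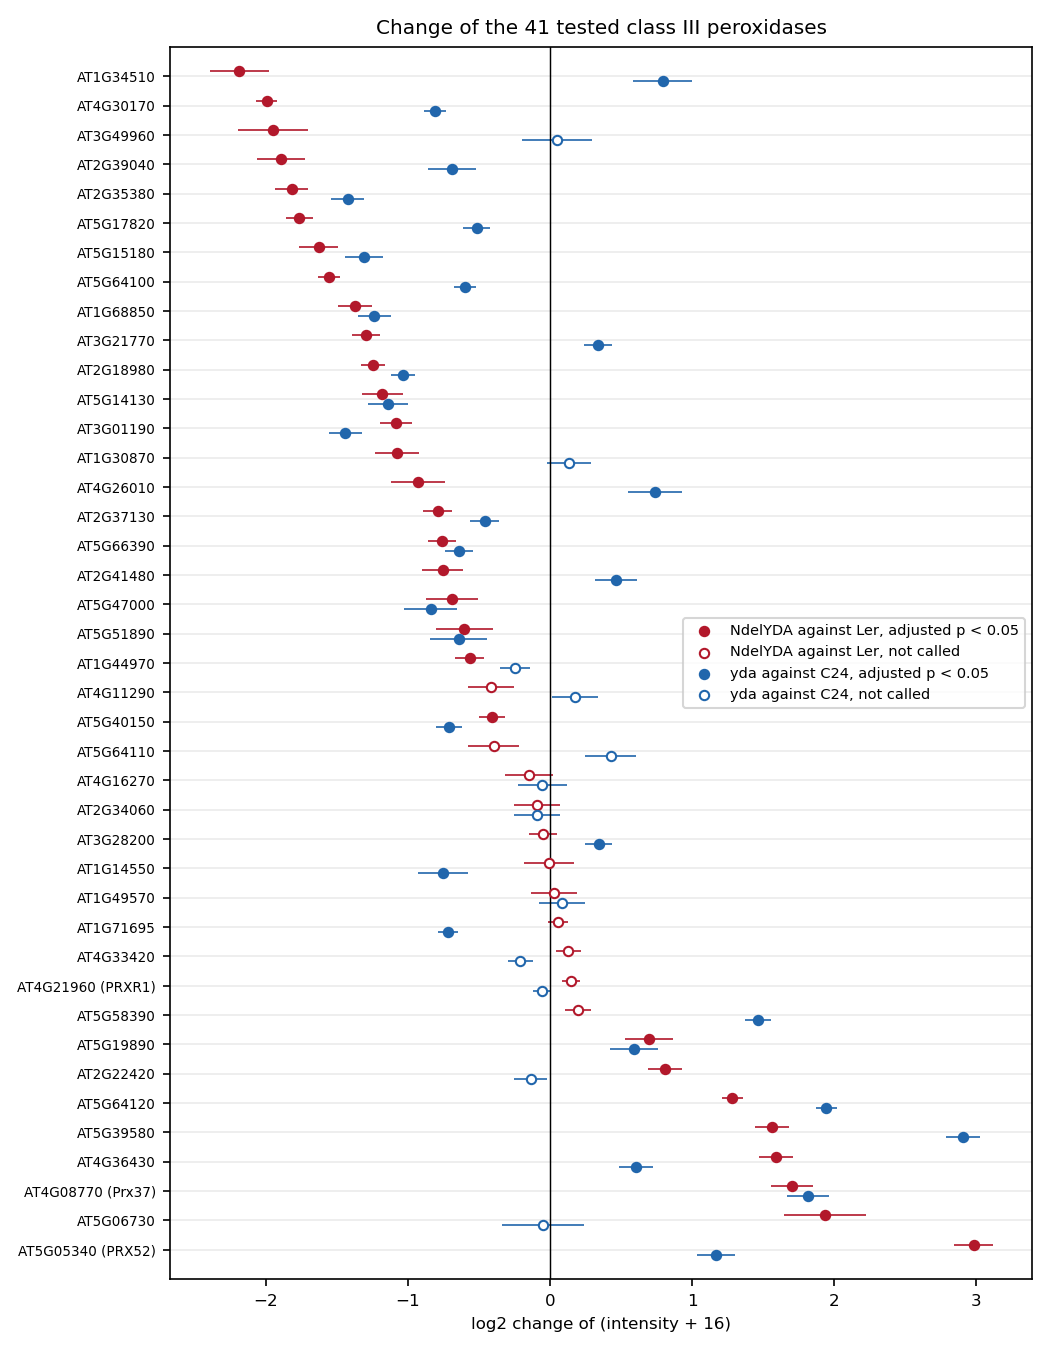
Log2 change of each tested peroxidase (rows) on the log2(intensity + 16) scale in NdelYDA against Ler and in yda against C24, with error bars of 1 standard error from the fit and filled points for an adjusted p under 0.05. The NdelYDA points run from -2.19 for AT1G34510 to 2.98 for AT5G05340, and the yda points from -1.44 for AT3G01190 to 2.91 for AT5G39580.

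**Figure D2:**
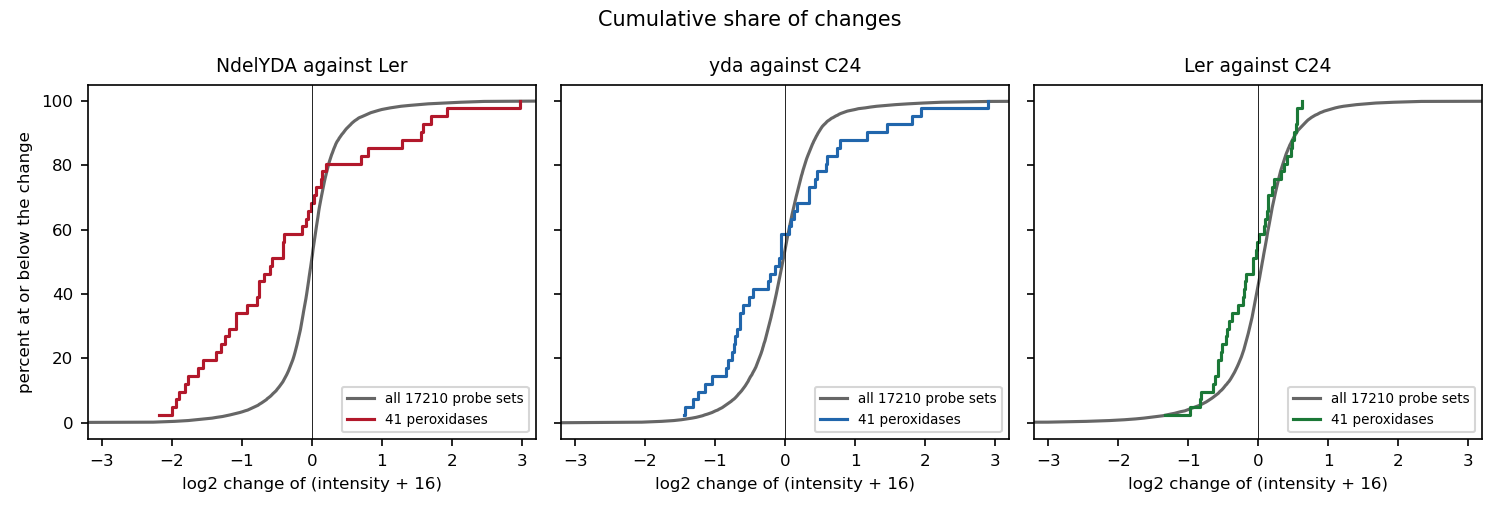
Cumulative share of the 41 tested peroxidases and of all 17210 tested probe sets by log2 change on the log2(intensity + 16) scale, for NdelYDA against Ler, yda against C24 and Ler against C24. The median absolute change was 0.93 for the peroxidases against 0.19 for all probe sets in NdelYDA, 0.64 against 0.25 in yda, and 0.41 against 0.24 in Ler.

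The calls of both comparisons, which share no control array, sorted the 41 members into groups. Lower in both were 15 members, or 36.6%, where 7.33% of all probe sets were. Higher in both were 6 (5.65% of all), and 4 were lower in NdelYDA and higher in yda, with none the other way round (6.2% of all probe sets moved in opposite directions, either way). Of those lower in both, AT5G47000 exceeded the 30th percentile on only 3 arrays, AT2G39040 on 11 and AT5G14130 on 13. Of those higher in both, AT5G05340 did so on 8 and AT5G19890 on 9, and AT1G34510, called in opposite directions, on 8. Called in NdelYDA alone were 3 lower and 2 higher, called in yda alone were 2 lower and 2 higher, and 7 were called in neither mutant. The shares of all probe sets with these last patterns were not determined, so these counts have no baseline. The difference of the effects, NdelYDA minus Ler less yda minus C24, was tested for each member. It was called for 22 of 41 (53.7%, against 33.4% of all), lower for NdelYDA in 15 (15.8% of all) and higher in 7 (17.6% of all). Differences of at least 2-fold were lower for 11 members (3.1% of all) and higher for 2 (4.57% of all).

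**Figure D3:**
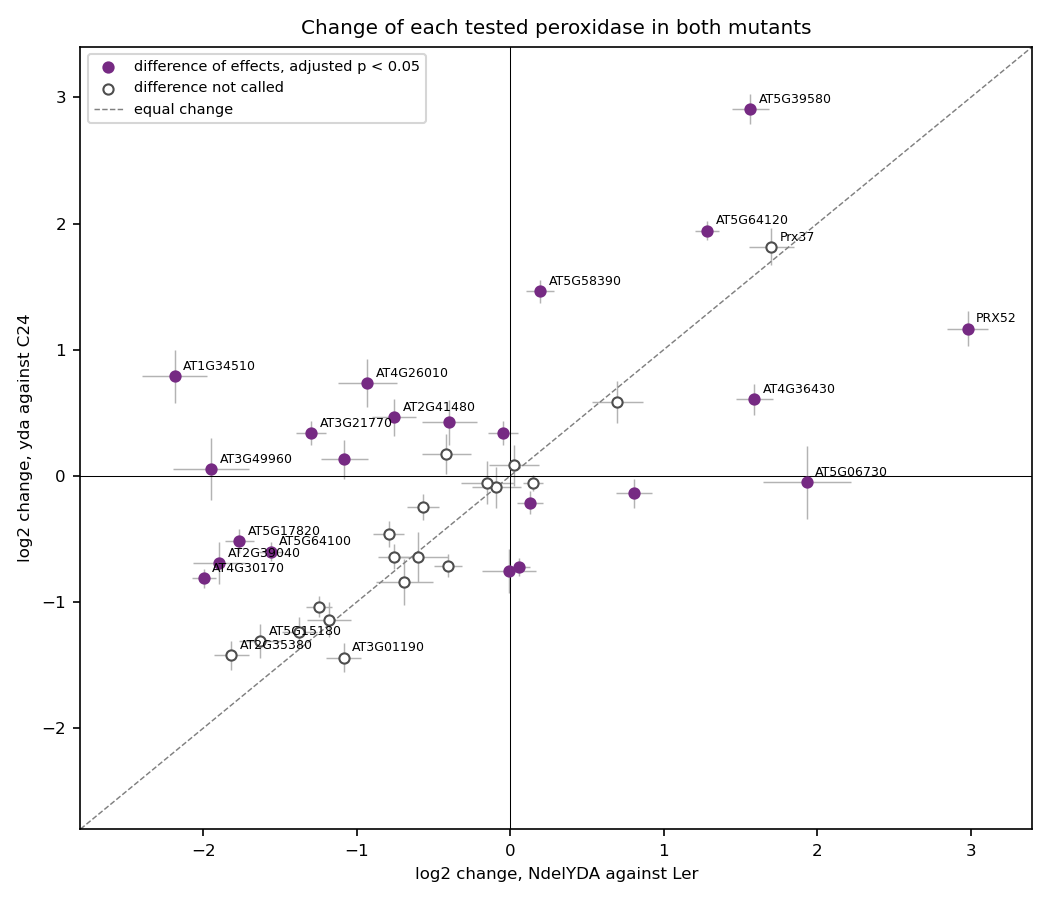
Log2 change in yda against C24 (vertical axis) plotted against that in NdelYDA against Ler (horizontal axis), a point for each of the 41 tested peroxidases. The lower left holds the 15 members called lower in both and the upper right the 6 called higher in both, and AT1G34510, AT4G26010, AT3G21770 and AT2G41480 lie at the upper left.

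Members with expression in root hairs, the tubular outgrowths of the root epidermis, were a list of 8, of which 6 were tested. In NdelYDA 5 of them fell and 1 rose, with a median change of -1.32. In yda 3 rose, 1 fell and 2 were not called, with a median of 0.43, or 0.13 with the same counts when C24 replicate 1 was left out. The list was put together from memory of published work, with results of these data known, and AT5G39580 also stands in the list on defence. The difference of the effects was called with the lower value in NdelYDA for all 6.

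AT1G34510, a root hair peroxidase, had intensities of 3.5, 3.6, 3.9 and 4.8 in NdelYDA, against 76.3, 53.3 and 101.0 in Ler. All NdelYDA values are far under the 30th percentile of their arrays (75.1 to 85.75 over the 14 arrays). Ler replicates 1 and 2 were under it as well (83.4 and 85.5 on those arrays). AT1G34510 passed the filter on 8 arrays, mainly those of yda and C24, so its NdelYDA change compares low signals. In yda it had 252.5, 329.6, 295.7 and 295.9, against 105.8, 219.3 and 181.0 in C24. Neither pair of groups overlapped. The log2 change was -2.19 in NdelYDA (SE 0.21, adjusted p = 6.6e-07) and 0.79 in yda (SE 0.21, adjusted p = 0.00613). The effects differed by -2.98 (SE 0.30, adjusted p = 1.9e-06). At this low signal the size depends on the pseudocount, and the NdelYDA change of AT1G34510 was -3.94 with a pseudocount of 1 and -1.04 with 64, called both times. The change in yda was 0.52 without C24 replicate 1 (adjusted p = 0.0424), and 1.76 against the Ler control (adjusted p = 2.4e-06).

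AT3G49960, expressed in root hairs as well, gave 7.1, 15.3, 3.7 and 4.5 in NdelYDA, against 106.0, 73.1 and 50.5 in Ler. In yda it gave 130.0, 205.0, 125.0 and 142.5, against 101.9, 157.3 and 177.6 in C24. The NdelYDA arrays were all low and apart from Ler, while yda and C24 overlapped. All NdelYDA arrays and Ler replicates 2 and 3 were under the 30th percentile. AT3G49960 passed the filter on 8 arrays, mainly those of yda and C24, so its NdelYDA change compares low signals. The log2 change was -1.95 in NdelYDA (SE 0.25, adjusted p = 1.3e-05), and the 0.05 in yda was not called (95% interval -0.47 to 0.57, adjusted p = 0.892). With a pseudocount of 1 the NdelYDA change of AT3G49960 was -3.28, and with 64 it was -0.96, called both times. The yda change of AT3G49960 depended on the control, at -0.16 without C24 replicate 1 (adjusted p = 0.659) and 0.87, a called rise, against Ler (adjusted p = 0.0062).

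AT4G26010 had 228.2, 268.6, 288.1 and 268.6 in NdelYDA, against 447.8, 484.9 and 627.0 in Ler. For yda the values were 1451.3, 1601.8, 1511.0 and 1696.2, against 578.4, 1125.7 and 1235.2 in C24. The NdelYDA arrays were the lowest of the 14 and the yda arrays the highest, with no overlap within either comparison. Its log2 change was -0.93 in NdelYDA (SE 0.19, adjusted p = 0.0012) and 0.74 in yda (SE 0.19, adjusted p = 0.00508). The change in yda was 0.40 without C24 replicate 1 (adjusted p = 0.0141), and 1.57 against the Ler control (adjusted p = 2.8e-06).

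AT1G30870 had 200.1, 209.8, 217.4 and 196.4 in NdelYDA, against 420.7, 441.7 and 500.4 in Ler. In yda it had 546.3, 604.3, 535.2 and 607.9, against 350.6, 670.3 and 600.6 in C24. NdelYDA lay below Ler on every array, and yda lay within the spread of C24. The log2 change was -1.08 in NdelYDA (SE 0.16, adjusted p = 4.6e-05) and 0.13 in yda, not called (95% interval -0.20 to 0.46, adjusted p = 0.532). Without C24 replicate 1 the yda change of AT1G30870 was -0.15 (adjusted p = 0.242).

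AT5G64100, a peroxidase with a part in root hair growth at low temperature, had 927.0, 848.5, 963.1 and 986.8 in NdelYDA, against 2699.2, 2765.9 and 2848.3 in Ler. The yda arrays gave 2654.2, 2725.0, 2833.3 and 2630.2, against 3550.2, 4564.0 and 4305.7 in C24. Both mutants lay below their own control without overlap, yet yda lay at the level of Ler. The log2 change was -1.56 in NdelYDA (SE 0.08, adjusted p = 3.8e-10) and -0.60 in yda (SE 0.08, adjusted p = 1.3e-05). Set against Ler, the yda change was -0.03 (adjusted p = 0.748) and the call was lost. The effects differed by -0.96 (adjusted p = 6.8e-06).

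The expansins EXPA7 and EXPA18, wall-loosening proteins of root hair cells, were the only root hair genes outside the family with a probe set of their own, 2 of the 12 on that list. EXPA7 averaged 87.3 ± 10.03 in NdelYDA and 154 ± 29.8 in Ler (SD, n = 4 and 3), a log2 change of -0.71 (adjusted p = 0.00472). EXPA18 averaged 152 ± 15.7 in NdelYDA and 228 ± 59.4 in Ler, a change of -0.51 (adjusted p = 0.0151). Neither was called in yda, with changes of 0.35 (adjusted p = 0.12) and 0.13 (adjusted p = 0.517). These markers fell in NdelYDA, as did 5 of the 6 tested root hair peroxidases, while AT5G39580 rose. The part of root hair number or length in those falls was not tested.

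AT5G39580, the remaining root hair member and also a gene of root hair growth in the cold and of pathogen response, had the largest rise of the family in yda. Its intensities were 3694.1, 2891.4, 3365.0 and 3292.6 in yda, against 372.4, 377.6 and 548.5 in C24. In NdelYDA they were 530.5, 465.9, 519.0 and 505.1, against 176.9, 147.6 and 157.0 in Ler. Both mutants lay above their own control on every array, and NdelYDA fell among the values of C24. Its log2 change was 2.91 in yda (SE 0.12, adjusted p = 5.9e-11), a 7.5-fold rise, and 1.56 in NdelYDA (SE 0.12, adjusted p = 5.1e-08). The effects differed by -1.34 (SE 0.17, adjusted p = 1.8e-05). AT5G39580 was also the member that differed most between the controls, lower in Ler than in C24 by -1.33 (adjusted p = 6.5e-07). Against C24 in place of Ler the NdelYDA change was 0.24 and not called (adjusted p = 0.119), while yda against Ler gave 4.23 (adjusted p = 1.5e-13).

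Peroxidases of lignin formation and wall barriers were a list of 9, of which 7 were tested. In NdelYDA 3 rose, 3 fell and 1 was not called, and in yda 3 rose, 2 fell and 2 were not called, so the list moved in no single direction.

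AT5G05340 (PRX52), which takes part in syringyl lignin synthesis in stem fibres, had the largest rise of the family in NdelYDA. It had 397.1, 406.2, 444.6 and 480.9 in NdelYDA, against 50.1, 32.2 and 41.1 in Ler. In yda it had 106.0, 106.3, 139.7 and 124.3, against 42.7, 41.5 and 47.3 in C24. Both mutants lay above their control without overlap. All control arrays were under the 30th percentile, so AT5G05340 passed the filter through its 8 mutant arrays. Its log2 change was 2.98 in NdelYDA (SE 0.14, adjusted p = 1.5e-10) and 1.17 in yda (SE 0.14, adjusted p = 4.3e-06). The rise in NdelYDA was the larger by 1.81 (SE 0.19, adjusted p = 3.2e-06). These sizes depend on the pseudocount, and the change of AT5G05340 in NdelYDA was 3.38 with a pseudocount of 1 and 2.24 with 64, against 1.41 and 0.76 in yda, all called.

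AT5G64120 (PRX71), linked to restricted cell expansion under wall damage and to pathogen response, had 2045.9, 2006.6, 1911.8 and 2042.4 in NdelYDA, against 823.6, 759.3 and 858.8 in Ler. Its yda values were 4689.6, 4310.6, 4656.9 and 4487.6, against 1035.4, 1149.5 and 1332.7 in C24. The replicates were tight and no groups overlapped. Its log2 change was 1.28 in NdelYDA (SE 0.08, adjusted p = 2.8e-09) and 1.94 in yda (SE 0.08, adjusted p = 3.5e-11), and the effects differed by -0.66 (adjusted p = 0.000187).

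AT2G41480 (PRX25), known from lignin content of stems, moved in opposite directions. It had 132.1, 100.4, 116.3 and 143.0 in NdelYDA, against 252.9, 199.2 and 202.7 in Ler, and 336.2, 379.3, 400.2 and 283.2 in yda, against 205.0, 262.2 and 280.7 in C24. NdelYDA lay below all Ler arrays, and the lowest yda array lay just above the highest C24 array. Its log2 change was -0.76 in NdelYDA (SE 0.15, adjusted p = 0.0007) and 0.46 in yda (SE 0.15, adjusted p = 0.0167). The call in yda was lost without C24 replicate 1 (0.34, adjusted p = 0.0902) or yda replicate 3 (0.40, adjusted p = 0.0528), and was made against the Ler control (0.64, adjusted p = 0.00127).

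AT2G22420, a peroxidase of lignin formation, rose in NdelYDA, with 440.6, 447.8, 363.3 and 429.1 against 238.8, 231.5 and 226.8 in Ler. In yda it had 258.3, 304.0, 232.8 and 352.8, against 307.1, 322.0 and 311.9 in C24, with overlap. The change was 0.81 in NdelYDA (SE 0.12, adjusted p = 5.1e-05) and -0.14 in yda, not called (95% interval -0.39 to 0.11, adjusted p = 0.37). The difference of the effects was 0.95 (adjusted p = 0.000362).

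AT5G66390 (PRX72), a lignification enzyme, fell in both mutants. It had 343.5, 366.3, 397.3 and 411.5 in NdelYDA, against 592.4, 633.6 and 740.1 in Ler, and 525.1, 496.5, 581.1 and 561.7 in yda, against 837.3, 957.6 and 768.0 in C24. The changes of -0.76 in NdelYDA (adjusted p = 1.7e-05) and -0.64 in yda (adjusted p = 7e-05) did not pass the test of a difference (-0.12, 95% interval -0.42 to 0.18, adjusted p = 0.554). Each mutant lay wholly below its control.

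AT5G51890, expressed in differentiating tracheary elements, had 1071.7, 999.3, 1001.1 and 1116.3 in NdelYDA, against 1646.8, 1516.2 and 1629.7 in Ler. Intensities in yda were 856.0, 675.6, 974.4 and 589.2, against 746.2, 1515.4 and 1503.1 in C24. C24 replicate 1 stood apart from the other C24 arrays and within the range of yda. The changes of -0.60 in NdelYDA (SE 0.20, adjusted p = 0.0294) and -0.64 in yda (SE 0.20, adjusted p = 0.0159) were called, but the NdelYDA call was lost without NdelYDA replicate 1 (adjusted p = 0.0501), 2 (0.0634) or 3 (0.0623) and without any single Ler array (0.0575 to 0.0841). Against C24 in place of Ler it was -0.19 (adjusted p = 0.466). Without C24 replicate 1 the yda change was -0.98 (adjusted p = 5.2e-05), and without C24 replicate 2 or 3 it was -0.47 (adjusted p = 0.0954) or -0.48 (adjusted p = 0.0873).

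AT4G33420, the last of the lignification list, averaged 1895 ± 55.2 in NdelYDA and 1731 ± 21.6 in Ler, and 1513 ± 159 in yda and 1755 ± 220 in C24. Its NdelYDA arrays lay wholly above the Ler arrays, and yda overlapped C24. Neither change was called (0.13, adjusted p = 0.3, and -0.21, adjusted p = 0.0621). Their difference of 0.34 was (adjusted p = 0.0441), but that call was lost in 11 of the 14 fits that each left out an array (adjusted p = 0.0508 to 0.106).

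Members tied to the oxidative burst, pathogens or wounding were a list of 9, of which 5 were tested: AT4G08770 (Prx37), AT5G39580, AT5G64120, AT2G37130 and AT1G14550. In NdelYDA 3 rose, 1 fell and 1 was not called, and in yda 3 rose and 2 fell.

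AT4G08770 (Prx37), whose overexpression dwarfs plants, had 967.8, 985.1, 1008.1 and 900.8 in NdelYDA, against 265.8, 283.9 and 309.6 in Ler. In yda it had 744.7, 652.3, 652.5 and 652.1, against 131.1, 169.8 and 260.2 in C24. Every mutant array lay above every control array of either ecotype. The rises were 3.25-fold in NdelYDA (log2 1.70, SE 0.15, adjusted p = 2.1e-07) and 3.52-fold in yda (log2 1.82, SE 0.15, adjusted p = 8.9e-08), and their difference of -0.12 was not called (95% interval -0.56 to 0.33, adjusted p = 0.716).

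AT2G37130 averaged 1997 ± 126 in NdelYDA and 3470 ± 259 in Ler, and 3795 ± 639 in yda and 5173 ± 120 in C24. Both mutants lay below their own control on every array, with changes of -0.79 (adjusted p = 1.5e-05) and -0.46 (adjusted p = 0.00159). Against Ler in place of C24 the yda change was 0.12 (adjusted p = 0.342), the single called member whose sign turned with the control. AT1G14550 was lower in yda only, with 56.6, 61.1, 35.3 and 55.5 against 92.9, 94.2 and 106.0 in C24 (log2 change -0.75, adjusted p = 0.00231). It averaged 58.4 ± 10.7 in NdelYDA and 58.2 ± 5.66 in Ler, so yda stood near the Ler control, against which its change was -0.14 (adjusted p = 0.517). It passed the filter on the 3 C24 arrays alone.

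AT4G36430 and AT5G19890 were the other members higher in both mutants. AT4G36430 had 780.2, 779.9, 883.2 and 836.1 in NdelYDA, against 276.2, 229.7 and 280.4 in Ler, and 329.0, 219.6, 268.9 and 279.0 in yda, against 196.8, 169.5 and 154.7 in C24. Neither comparison had overlapping arrays. The rise was 1.59 in NdelYDA (SE 0.12, adjusted p = 4.4e-08) and 0.61 in yda (SE 0.12, adjusted p = 0.000698), larger in NdelYDA by 0.98 (adjusted p = 0.000326). Against Ler the yda change was 0.05 (adjusted p = 0.729). AT5G19890 averaged 121 ± 10.6 in NdelYDA and 68.6 ± 7.18 in Ler (change 0.70, adjusted p = 0.00422), and 116 ± 25.4 in yda and 71.2 ± 13.6 in C24 (change 0.59, adjusted p = 0.0101). The yda arrays overlapped C24, and the yda call was lost without C24 replicate 1 (0.47, adjusted p = 0.0513).

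**Figure D4:**
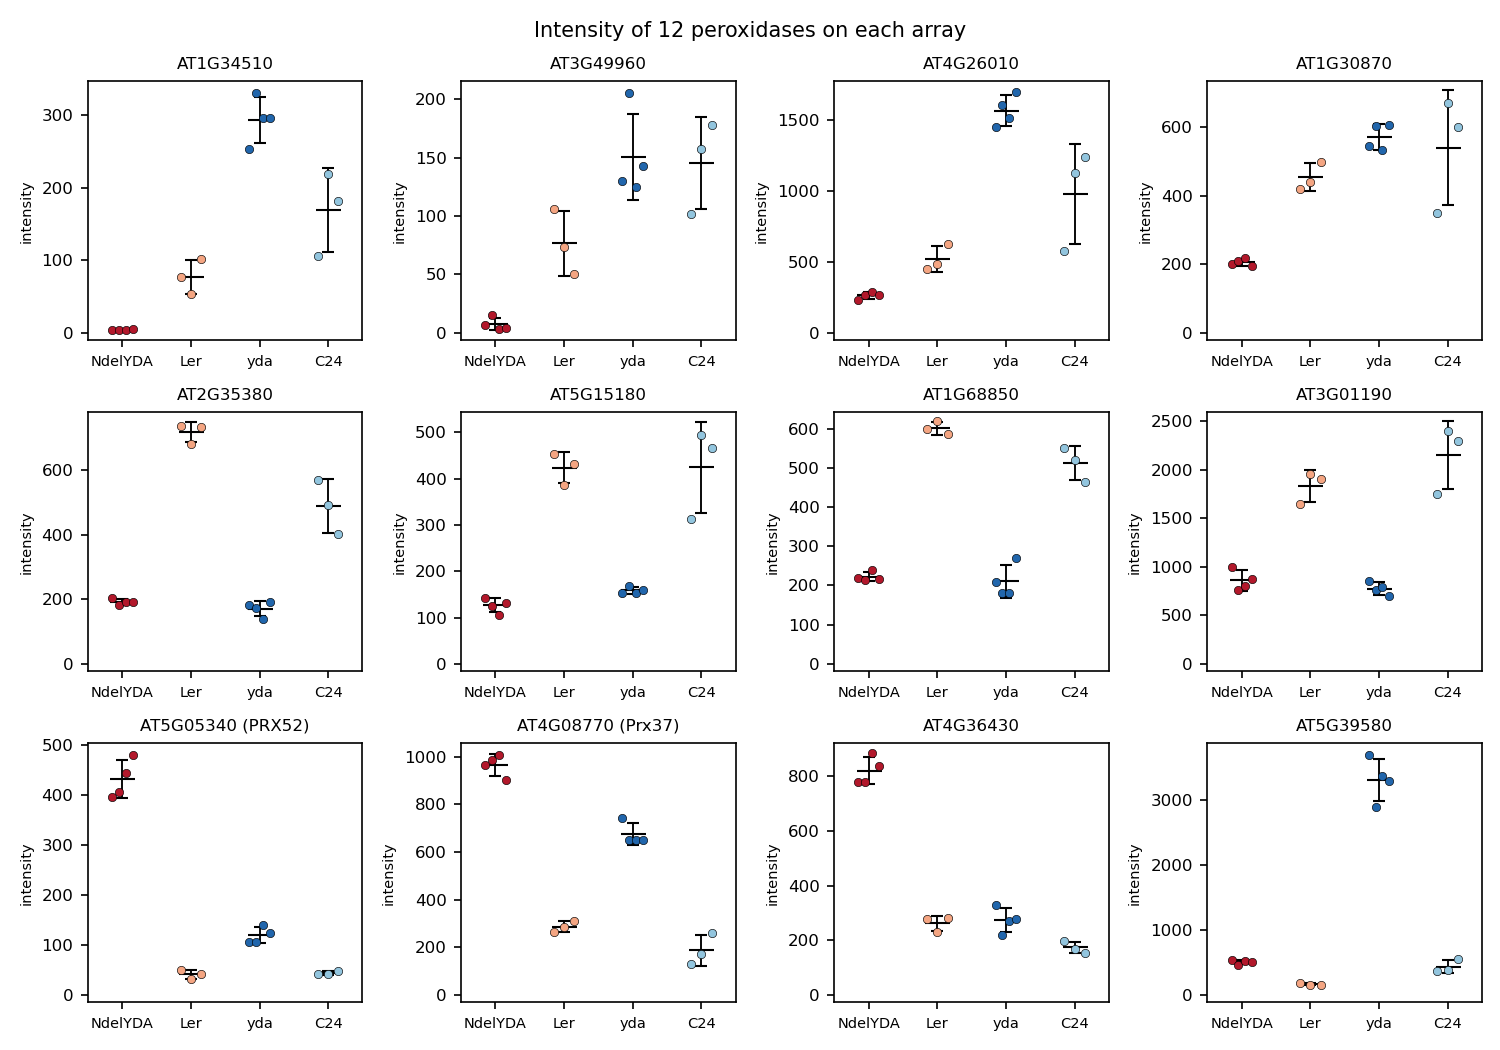
Intensity (linear scale, each panel with its own axis) of 12 peroxidases on each of the 14 arrays, with the mean and SD of each group drawn as lines. In AT5G39580 the 4 yda arrays sit between 2891 and 3694, above all others, and in AT5G05340 the 4 NdelYDA arrays sit between 397 and 481, above all others.

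The 15 members lower in both mutants held the 8 largest falls called in yda. Of the 15, 12 were lower by at least 1.5-fold in both. The difference of the effects was called for 4 of the 15 (AT4G30170, AT2G39040, AT5G17820 and AT5G64100), each with the lower value in NdelYDA, and not for the other 11. The like shares over all probe sets were not determined for these counts, so they have no baseline.

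AT4G30170 had the smallest p-value of the family in NdelYDA. It had 813.4, 806.2, 785.6 and 794.2 in NdelYDA, against 3248.6, 3015.6 and 3461.8 in Ler, and 1178.9, 1279.6, 1448.9 and 1229.9 in yda, against 2074.1, 2392.3 and 2317.8 in C24. The NdelYDA replicates lay close together, and each mutant was clear of its control. It was 3.99-fold lower in NdelYDA (log2 change -1.995, SE 0.08, adjusted p = 2.2e-11) and 1.75-fold lower in yda (-0.81, SE 0.08, adjusted p = 4.1e-07). The fall in NdelYDA was the deeper, by -1.19 (SE 0.11, adjusted p = 7e-07).

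AT2G39040 had 80.0, 107.4, 64.2 and 68.7 in NdelYDA, against 316.5, 305.6 and 393.8 in Ler. The 4 yda arrays read 149.4, 169.4, 143.6 and 149.3, against 189.3, 288.8 and 306.2 in C24. Neither comparison had overlapping arrays. The change was -1.90 in NdelYDA (SE 0.17, adjusted p = 2.7e-07) and -0.69 in yda (SE 0.17, adjusted p = 0.00341), and the effects differed by -1.21 (adjusted p = 0.000992).

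AT5G17820, one of the root peroxidases under the transcription factor UPBEAT1 that balances division and elongation at the root tip, had 551.5, 553.6, 555.9 and 535.3 in NdelYDA, against 1694.2, 2012.4 and 2020.7 in Ler. In yda it had 1980.3, 1803.0, 1762.3 and 1800.6, against 2840.0, 2945.8 and 2178.5 in C24. Both mutants lay below their control without overlap, and the yda arrays lay within the range spanned by Ler. The change was -1.76 in NdelYDA (SE 0.09, adjusted p = 7.4e-10) and -0.52 in yda (SE 0.09, adjusted p = 0.00031), and -0.05 for yda set against Ler (adjusted p = 0.656). Of the other UPBEAT1-related members, AT4G11290 (changes -0.42 and 0.18, adjusted p = 0.0589 and 0.408) and AT4G16270 (-0.15 and -0.05, adjusted p = 0.568 and 0.831) were called in neither mutant. AT4G11290 was called in NdelYDA, with the same change, when C24 replicate 1 was left out (adjusted p = 0.0062).

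For the next 6 no difference of effects was called with all arrays. AT2G35380 had 204.0, 183.2, 189.9 and 190.2 in NdelYDA, against 735.5, 680.8 and 732.7 in Ler, and 181.9, 173.4, 139.3 and 190.3 in yda, against 569.7, 492.0 and 402.3 in C24. Both mutants stood at about the same level, far below either control. The changes were -1.82 (SE 0.12, adjusted p = 6.6e-09) and -1.42 (SE 0.12, adjusted p = 9.1e-08), with a difference of -0.39 (95% interval -0.74 to -0.05, adjusted p = 0.0772). That difference of AT2G35380 was called without C24 replicate 1 (-0.51, adjusted p = 0.0199) and with a pseudocount of 64 (-0.38, adjusted p = 0.0453). AT3G01190 had the largest fall of the family in yda, with 851.9, 760.3, 789.2 and 701.4 against 1750.7, 2402.5 and 2293.9 in C24. In NdelYDA it had 1001.2, 758.3, 800.5 and 874.3, against 1646.9, 1955.9 and 1901.5 in Ler. Every mutant array lay below every control array, with changes of -1.09 (SE 0.11, adjusted p = 1.8e-06) in NdelYDA and -1.44 (SE 0.11, adjusted p = 6.8e-08) in yda. The difference for AT3G01190 was 0.36 (95% interval 0.01 to 0.70, adjusted p = 0.105), and it was called without C24 replicate 1 (0.50, adjusted p = 0.0132).

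AT5G15180 averaged 126 ± 15.5 in NdelYDA and 424 ± 33.8 in Ler (change -1.63), and 159 ± 7.18 in yda and 424 ± 97.6 in C24 (change -1.31). AT1G68850 averaged 223 ± 12.3 in NdelYDA and 601 ± 16.8 in Ler (change -1.37), and 210 ± 42.9 in yda and 512 ± 43.9 in C24 (change -1.24). AT2G18980 averaged 832 ± 42.7 in NdelYDA and 1996 ± 69.3 in Ler (change -1.25), and 691 ± 55.4 in yda and 1438 ± 169 in C24 (change -1.04). All 3 lay below their control on every mutant array. AT5G14130 averaged 93.7 ± 10.9 in NdelYDA and 232 ± 22.7 in Ler (change -1.18), and 90.6 ± 19.1 in yda and 216 ± 6.12 in C24 (change -1.14). The largest adjusted p-value of these 8 changes was 8.1e-06, for AT5G14130 in yda, and its difference of effects was -0.04 (95% interval -0.46 to 0.38).

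The remaining members lower in both mutants were AT5G40150 and AT5G47000. AT5G40150 averaged 413 ± 23.9 in NdelYDA and 555 ± 66.4 in Ler (change -0.41, adjusted p = 0.00252), and 298 ± 21.0 in yda and 498 ± 36.0 in C24 (change -0.71, adjusted p = 1.2e-05). AT5G47000 was dim, at 40.5 ± 4.71 in NdelYDA and 75.1 ± 6.70 in Ler (change -0.69, adjusted p = 0.00871), and 47.3 ± 15.1 in yda and 95.2 ± 7.97 in C24 (change -0.84, adjusted p = 0.00159). It passed the filter on 3 arrays only, so it was in the tests through its C24 signal, and it had no value under the filter without C24 replicate 1.

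AT3G21770 completed the 4 members with opposite calls. It had 313.4, 417.6, 339.4 and 381.6 in NdelYDA, against 1004.2, 819.7 and 913.7 in Ler, and 942.9, 1016.9, 970.7 and 1075.1 in yda, against 744.8, 772.8 and 847.7 in C24. The NdelYDA arrays were the lowest of the 14, and the yda arrays lay above C24 but overlapped Ler. The change was -1.30 in NdelYDA (SE 0.10, adjusted p = 4.1e-08) and 0.34 in yda (SE 0.10, adjusted p = 0.01). Against Ler the yda change was 0.14 and not called (adjusted p = 0.248).

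Members called in a single mutant included a further 5 beside those already described. AT5G06730 was high in NdelYDA, with 146.2, 138.6, 125.1 and 97.4 against 23.5, 45.0 and 5.1 in Ler, and low everywhere in the other comparison, at 8.1 to 9.1 in yda and 8.1 to 10.4 in C24. It was above the 30th percentile on the 4 NdelYDA arrays alone, and its log2 change there was 1.93 (SE 0.29, adjusted p = 6.6e-05), or 1.13 with a pseudocount of 64. AT5G58390 was high in yda, with 660.6, 605.7, 642.7 and 650.6 against 242.3, 238.1 and 189.0 in C24 (change 1.46, SE 0.09, adjusted p = 4.7e-09). In NdelYDA it had 260.4, 262.9, 287.1 and 281.1, against 228.6, 252.3 and 228.2 in Ler, without overlap but not called (0.20, adjusted p = 0.119). The effects differed by -1.27 (adjusted p = 2.2e-06).

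AT1G71695 was lower in yda, at 1551 ± 122 in yda and 2568 ± 212 in C24 (change -0.72, adjusted p = 6.6e-07), and at 1841 ± 75.8 in NdelYDA and 1768 ± 43.6 in Ler (0.06, adjusted p = 0.596). Against Ler its yda change was -0.19 (adjusted p = 0.0291). AT3G28200 was higher in yda, at 924 ± 102 in yda and 727 ± 91.0 in C24 (change 0.34, adjusted p = 0.00917). Its call was lost without C24 replicate 1 (0.24, adjusted p = 0.0553) and against Ler (0.20, adjusted p = 0.0876). AT1G44970 was lower in NdelYDA, at 198 ± 16.2 in NdelYDA and 302 ± 36.5 in Ler (change -0.57, adjusted p = 0.000493), and its -0.25 in yda was not called (adjusted p = 0.0698). Against Ler the direction of AT1G44970 in yda turned, with a called change of 0.39 (adjusted p = 0.00406).

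The 7 members called in neither mutant were AT1G49570, AT2G34060, AT4G11290, AT4G16270, AT4G21960 (PRXR1), AT4G33420 and AT5G64110. With only the NdelYDA and Ler arrays in the fit, AT4G11290, AT4G21960, AT4G33420 and AT5G64110 were called in NdelYDA (adjusted p = 0.0074 to 0.0444). PRXR1 averaged 9822 ± 154 in NdelYDA and 8877 ± 520 in Ler, and 9684 ± 817 in yda and 10080 ± 586 in C24. Its changes were 0.15 (95% interval 0.01 to 0.28, adjusted p = 0.0925) and -0.06 (95% interval -0.20 to 0.08, adjusted p = 0.483). The NdelYDA arrays of PRXR1 lay wholly above the Ler arrays. AT1G49570, with changes of 0.02 and 0.08, and AT2G34060, with -0.09 in each, were not called against their own control, between the controls or for the difference of effects, and neither was AT4G16270. AT2G34060 was lower in yda when set against Ler (-0.42, adjusted p = 0.0342).

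The 3 adjacent genes on chromosome 5, AT5G64100, AT5G64110 and AT5G64120, are neighbours in the gene table with no other protein-coding gene between them. The first was lower in both mutants and AT5G64120 higher in both, as described. AT5G64110 had 75.6, 62.4, 65.1 and 62.6 in NdelYDA, against 88.7, 86.1 and 102.8 in Ler, and 168.0, 184.3, 166.8 and 208.3 in yda, against 84.7, 178.8 and 145.4 in C24. NdelYDA lay below Ler and yda overlapped C24, and neither change was called (-0.40, adjusted p = 0.107, and 0.43, adjusted p = 0.0662). The NdelYDA change was called when C24 replicate 1 was left out (adjusted p = 0.0216), and the yda change of AT5G64110 was then 0.15 (adjusted p = 0.42). Set against the other control, both were called, at -0.84 for NdelYDA over C24 (adjusted p = 0.00124) and 0.86 for yda over Ler (adjusted p = 0.000579). The difference of the effects was -0.82 (adjusted p = 0.0196), and it was lost without Ler replicate 3 (adjusted p = 0.0521). The list holds 6 neighbouring pairs, of which 2, both in this cluster, had both genes tested.

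**Figure D5:**
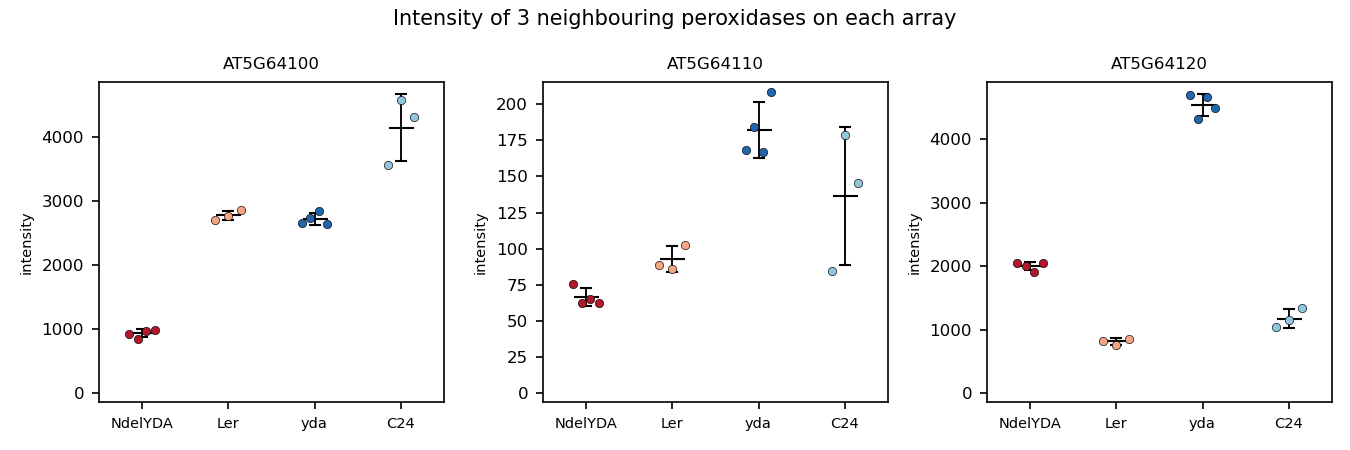
Intensity of AT5G64100, AT5G64110 and AT5G64120 on each of the 14 arrays, with the mean and SD of each group. AT5G64100 is lowest in NdelYDA (848.5 to 986.8) and AT5G64120 highest in yda (4310.6 to 4689.6).

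Between the controls, 20 of 41 members differed, 14 lower and 6 higher in Ler than in C24 (48.8%, against 37.2% of all probe sets, of which 16.2% were lower and 21% higher). The median change of the members was -0.07, against 0.06 for all. At least 2-fold lower in Ler was 1 member (4.11% of all probe sets) and none was 2-fold higher (2.83% of all). The Ler arrays lay wholly below C24 for 13 members (19.5% of all) and wholly above for 8 (26.6% of all). Ler against C24 lay between -1.33 for AT5G39580 and 0.62 for Prx37. Of the 6 tested root hair members 5 were lower in Ler, among them AT1G34510 (-0.97, adjusted p = 0.0029) and AT4G26010 (-0.84, adjusted p = 0.00418). For AT3G49960 (-0.82, adjusted p = 0.0224) the arrays overlapped, and the call was lost on leaving out any of 4 single arrays (adjusted p = 0.0553 to 0.114) or with a pseudocount of 1 (adjusted p = 0.0891). AT1G30870, the sixth of them, was called lower in Ler without C24 replicate 1 (-0.47, adjusted p = 0.00152), as were AT3G01190 (-0.36, adjusted p = 0.02) and AT5G64110 (-0.71, adjusted p = 0.00152), while PRXR1 (AT4G21960) lost its call (-0.18, adjusted p = 0.0761). The rise of Prx37 in Ler was 0.41 without C24 replicate 1 (adjusted p = 0.0214). That of AT4G11290, 0.49 with an adjusted p of 0.0342, was then 0.24 and not called (adjusted p = 0.162), and was not called without any of the Ler arrays either (adjusted p = 0.0678 to 0.0818). Set against the C24 control, NdelYDA gave 32 calls (78% of the members, against 45.4% of all probe sets). Of these 24 were lower (58.5%, against 20.9% of all) and 8 higher (19.5%, against 24.5% of all). Set against Ler, yda gave 26 calls, or 63.4%, near the 59.7% of all probe sets. Of these 14 were lower (34.1%, against 35.5% of all) and 12 higher (29.3%, against 24.2% of all). Both comparisons include what differs between the ecotypes. Calls that appeared for NdelYDA over C24, beside that of AT5G64110, were those of AT1G14550 (-0.62, adjusted p = 0.00839), AT1G71695 (-0.47, adjusted p = 4.8e-05) and AT5G58390 (0.28, adjusted p = 0.02).

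The 6 members below the filter were AT1G24110, AT2G24800, AT3G03670, AT3G50990 (PER36, a peroxidase of seed coat mucilage release), AT4G17690 and AT5G19880, with intensities of 2.7 to 85.4. Of the probe sets that hold a pair of genes, that of AT2G38390 and AT2G38380 had 2635 ± 142 in NdelYDA and 5478 ± 364 in Ler (change -1.05, adjusted p = 1.1e-08), and 3807 ± 233 in yda and 4129 ± 339 in C24 (-0.12, adjusted p = 0.202). That of AT4G37530 and AT4G37520 was higher in yda, at 1631 ± 71.7 in yda and 1008 ± 32.8 in C24 (change 0.69, adjusted p = 3.2e-06), and not called in NdelYDA (0.20, adjusted p = 0.0607). That of AT2G18150 and AT2G18140 was higher in NdelYDA, at 126 ± 13.2 in NdelYDA and 85.0 ± 17.4 in Ler (change 0.50, adjusted p = 0.0146), and not called in yda (-0.15, adjusted p = 0.455). The signal of such a probe set cannot be assigned to either gene.

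Few genes that supply or share the substrates of these enzymes could be read by a probe set assigned to them alone. Of 10 respiratory burst oxidases, the NADPH oxidases that make apoplastic superoxide, 2 were tested and both fell in both mutants. RBOHG averaged 21.9 ± 19.2 in NdelYDA and 167 ± 9.45 in Ler (change -2.39, adjusted p = 1e-05), and 47.0 ± 16 in yda and 132 ± 31.5 in C24 (-1.25, adjusted p = 0.00263). RBOHG passed the filter through the 6 control arrays, and all its mutant arrays (10.4 to 60.1) were under the 30th percentile, so the sizes of these falls rest on a low signal. RBOHE fell by 0.52 (adjusted p = 0.0036) and 0.47 (adjusted p = 0.00545) on the log2 scale. Of 8 ascorbate peroxidases, the intracellular class that removes hydrogen peroxide, 2 were tested. SAPX rose in yda (1.22, adjusted p = 9.8e-09) and was not called in NdelYDA (-0.08, adjusted p = 0.483), while TAPX, of the thylakoid, fell in both (-0.27, adjusted p = 0.00521, and -1.09, adjusted p = 4.3e-09).

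Of 19 genes of monolignol synthesis, which provides the lignin precursors, 2 were tested. HCT fell by 0.50 in NdelYDA (adjusted p = 1.8e-05) and by 0.30 in yda (adjusted p = 0.00153), and CCR2 was not called (adjusted p = 0.408 and 0.387). Of 17 laccases, which also polymerise monolignols, LAC16 alone had a probe set and it lay under the filter. SGN3, the receptor kinase of Casparian strip integrity and the 1 tested gene of 9 on the endodermis list, fell by 0.99 in NdelYDA (adjusted p = 6.1e-06) and by 0.94 in yda (adjusted p = 8.1e-06). None of the 10 superoxide dismutases and catalases had a probe set of its own. With so few genes measured, these values describe single genes and not their pathways.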

How the data were processed

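The deposited file holds 1 signal intensity per probe set and array, unlogged, with every array's mean at 500 once 2% of probe sets is trimmed at either end. The software behind them is not given in the sources used here, and no detection calls were used. Of 22810 probe sets, 64 were array controls and were left out of the tests. Genes were named through the array's probe table and the TAIR10.1 gene table, used for names and neighbours only, and 8730 probe sets had no entry in the probe table. The filter kept the 17210 probe sets that exceeded the 30th percentile on 3 or more of 14 arrays. Arrays were not rescaled, since the array medians lay within 0.144 log2 units. The yda medians (202.8 to 210.6) lay below all others, against 214.4 to 219.9 in C24, 217 to 224 in NdelYDA and 224.1 to 225.6 in Ler. Scaling the arrays to a common median ended 2 calls of members and added 2.

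Values were tested as log2(intensity + 16), which understates the changes of dim genes, in 1 linear model of 4 group means fitted by limma 3.58.1 under R 4.3.3 (moderated variances with an intensity trend). Tests were two-sided with Benjamini-Hochberg adjustment over everything tested. Calls are results with an adjusted p below 0.05. The number of arrays, 3 or 4 a group, limits the precision. The fit was tested on simulated data. Members, role lists and pathway lists were chosen with earlier results of these data known, and the lists come from memory of published work. The naming rule took the 8 largest called changes each way in each mutant comparison, the 6 largest in the others, and members called the same way in both by at least 1.5-fold or in opposite directions, the 5 brightest members, and called members of the role lists. It gave 34 members, and the remaining ones were named to account for the whole list. Alternatives were other pseudocounts, filters, scalings, variance and sample choices, the replicate number as a block, the other control, and each array left out in turn.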

Additional observations from a re-analysis of the deposited data

Results flagged for a closer look

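The effect of NdelYDA (over Ler) less that of yda (over C24), on the log2 scale, passed the test for 22 members. It was lower for NdelYDA in 15. These were AT1G34510 (-2.98), AT3G49960 (-2.0), AT4G26010 (-1.67), AT3G21770 (-1.64), AT5G39580 (-1.34), AT5G58390 (-1.27) and AT5G17820 (-1.25). AT2G41480 (-1.22), AT1G30870 (-1.21), AT2G39040 (-1.21), AT4G30170 (-1.19), AT5G64100 (-0.96), AT5G64110 (-0.82), AT5G64120 (-0.66) and AT3G28200 (-0.39) made up the rest. It was higher for NdelYDA in 7, AT5G06730 (1.99), AT5G05340 (1.81), AT4G36430 (0.98), AT2G22420 (0.95), AT1G71695 (0.78), AT1G14550 (0.75) and AT4G33420 (0.34). For dim members the size depends on the pseudocount. With 1 it was -4.79 for AT1G34510, -3.34 for AT3G49960 and 2.86 for AT5G06730, and with 64 it was -1.69, -0.99 and 1.14. With 64 the brighter AT4G26010 (-1.53) and AT3G21770 (-1.52) stood above AT3G49960 in size. Of these calls, that of AT4G33420 was lost on leaving out any of 11 single arrays, that of AT3G28200 on leaving out any of 7, that of AT1G14550 on leaving out any of 4 (adjusted p = 0.0503 to 0.0616), and that of AT5G64110 on leaving out 1.

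A single array stood far from the other 3 of its group, by Dixon's criterion at the 95% level, in 6 of the 82 groups of 4 arrays tested, and chance alone marks about 5% of groups. In NdelYDA these were the highest array of AT1G49570 (168.2), the highest of AT1G68850 (240.7) and the lowest of AT1G71695 (1727.8). In yda they were the highest array of AT1G71695 (1732.9), the highest of AT4G08770 (744.7) and the lowest of AT5G19890 (78.3).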

How the results depend on the processing

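Each count of called members stayed within 1.5 times of the reported one under every alternative run. With each array left out in turn, the calls ranged from 29 to 31 in NdelYDA, 24 to 30 in yda, 17 to 20 in Ler against C24 and 19 to 22 for the difference of effects. The shares of all probe sets called were 26.2 to 35.1%, 39 to 42.9%, 30.4 to 38.3% and 29.5 to 34.1%. Higher calls numbered 8 each time in NdelYDA, 9 to 13 in yda, 5 to 7 in Ler against C24 and 5 to 7 for the difference, and lower calls 21 to 23, 14 to 18, 10 to 15 and 13 to 16 in the same order. The shares of all probe sets by direction were not determined for these fits. Of 2329 alternative values of the 101 called changes, 2247 kept direction and call, 81 kept the direction and lost the call, and 1 reversed, AT2G37130 in yda set against Ler (0.116). The cause was not tested. Setting each mutant against the other ecotype's control ended 8 of 59 calls besides, all of them given with the results. A pseudocount of 64 reduced dim members by over 1.5 times with their calls kept, to 0.76 for AT5G05340 in yda, -0.41 and -0.53 for AT5G47000, and -0.48 for AT1G14550 in yda. Using the compared groups' arrays alone ended 4 calls, AT5G51890 in yda (adjusted p = 0.0676) and, in Ler against C24, AT4G08770 (0.052), AT4G11290 (0.0826) and AT4G21960 (0.0602). It added 4 in NdelYDA, those of AT4G11290 (adjusted p = 0.0074), AT4G21960 (0.0203), AT4G33420 (0.0444) and AT5G64110 (0.0411). Quantile normalization ended 2 calls and added 6, among them AT4G21960 in NdelYDA (adjusted p = 0.0052) and, in yda, AT4G33420 (0.0273) and AT5G64110 (0.0277). In Ler against C24, the call of AT4G21960 was also lost without the filter (adjusted p = 0.0782), without the intensity trend (0.103) and by quantile normalization (0.0941). That of AT4G11290 was lost without the filter (adjusted p = 0.0515), by quantile normalization (0.0559) and by median scaling (0.0526), and that of AT3G49960 with a pseudocount of 1 (0.0891). The difference for AT4G33420 was lost without the filter (adjusted p = 0.0564), without the trend (0.0712) and by median scaling (0.0877), and that for AT3G28200 without the trend (0.0522). Low signal limits the 6 members below the filter. Without it, AT3G50990 was higher in NdelYDA (0.80, adjusted p = 0.0113), AT3G03670 higher in yda (0.96, adjusted p = 0.0103) and AT2G24800 lower in Ler than in C24 (-0.57, adjusted p = 0.0306). No member had several probe sets or one of a shared-sequence type, so choosing another probe set or leaving that type out gives the same values.

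Correlations of deviations from the group means were -0.16 to 0.16 over 19 pairs of arrays with the same replicate number, 2 of them over 0.1. Over 54 pairs with different numbers they were -0.224 to 0.322, 6 of them over 0.1. The highest were those of C24 replicate 1 with yda replicate 4 (0.322) and with NdelYDA replicate 2 (0.213). Such correlations cannot settle whether the numbers pair the samples. With the replicate number as a block there were 29 calls in NdelYDA, 30 in yda, 20 in Ler against C24 and 23 for the difference of effects. Of all probe sets 29.7%, 41.7%, 36.3% and 32.5% were called, in the same order. Under the block AT5G51890 in NdelYDA (adjusted p = 0.0617) and the difference for AT3G28200 (adjusted p = 0.0547) lost their calls. Calls were gained for AT4G33420 in yda (adjusted p = 0.0385) and for the differences of AT4G21960 (0.0441) and AT5G40150 (0.0447).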
